A study of Mus musculus with 24 samples.

Results

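The comparison described here asks, for each gene, whether a past dose of diethylnitrosamine (DEN) had left a different mark on the liver of Smyd3 knockout mice than on the liver of wild type mice. All 12 RNA libraries of the series entered 1 fit of 4 groups with 3 mice each, out of 24 samples in all, the others being chromatin samples. The quantity tested was (DEN_Smyd3KO minus Smyd3KO) minus (DEN_WT minus WT), that is, the DEN effect in knockout livers minus the DEN effect in wild type livers, on the log2(value + 1) scale. It is called the contrast below: a negative contrast means that the gene stood relatively lower with DEN in the knockout than in wild type, and a positive contrast the reverse. The members are the 16471 of 37583 genes that reached 10 in 3 or more of the libraries.

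The 4 groups were untreated wild type (WT), untreated Smyd3 knockout (Smyd3KO), wild type given DEN (DEN_WT) and knockout given DEN (DEN_Smyd3KO). Every liver came from a mouse of 8.5 months, of a strain labelled C57BL6/CBA, while the husbandry note names C57Bl6. The treated mice had received 1 intraperitoneal injection of 25 mg/kg DEN, and the labels used here give neither the age at injection nor whether tumour nodules were dissected from the surrounding tissue. Each library is labelled as a separate mouse. The knockout allele, present in all tissues, is a gene trap in an intron of Smyd3 that carries a splice acceptor and a fusion of β-galactosidase with neomycin resistance. Exons upstream of the trap can still be transcribed, and the value of Smyd3 counts the whole gene.

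SMYD3 is a lysine methyltransferase that methylates histone H3 at lysine 4 and also several cytosolic proteins, and it is abundant in many tumours. It binds DNA at the motif CCCTCC. Trimethylation of lysine 4 (H3K4me3) marks the start sites of active genes. DEN is turned into a DNA-alkylating agent by cytochrome P450 enzymes of the hepatocyte, the main cell of the liver, and mice that survive the damage develop liver tumours months later. Hepatocytes of such tumours commonly regain genes of the fetal liver and lose genes of adult metabolism.

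The deposited values are read counts that had been divided by 1 factor per library and rounded, and their sums ran from 22320634 to 28973396 per library. Smyd3, the targeted gene, was at 79, 89 and 59 in WT, 29, 17 and 22 in Smyd3KO, 57, 71 and 74 in DEN_WT, and 12, 3 and 8 in DEN_Smyd3KO. No knockout library reached the lowest wild type library, and its contrast of -1.42 ± 0.58 (SE) was not past the threshold in limma (adjusted p = 0.11). Ddx3y, a Y-linked gene, ran from 697 to 1575 over the 12 libraries and Xist, the RNA of the inactive X chromosome, from 4 to 29. Hepatocyte markers were abundant throughout, with a summed value over 10 genes of 3585249 to 5514487 in DEN_WT and 1986585 to 3317995 in the other 9 libraries. The 10 highest genes held 22.4% to 33.4% of each DEN_WT library and 15.1% to 20.6% of the others. The 33.4% was in DEN_WT replicate 2, which stood apart within its group for some gene lists. List medians here are of the log2 deviation from each gene's mean over 12 libraries. For cytochrome P450 genes replicate 2 was at -1.861, against -0.626 and -0.737 in replicates 1 and 3. Male-biased genes were at -2.562 against -0.962 and -1.127, and macrophage markers at -0.743 against 0.879 and 0.544. For p53 targets it was nearer, at 0.392 against 0.63 and 0.58. DEN_Smyd3KO replicate 2 stood apart for several fetal genes, whose values in it are given below.

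The response to DEN differed between the genotypes for a large share of the liver transcriptome. In limma, with an adjusted p under 0.05 as the threshold for every call here, 1438 genes (8.73%) had a positive contrast and 1289 (7.83%) a negative one, out of 16471. Counts for the gene lists below are to be read against these shares of all genes. The median contrast over all genes was -0.03. When each library was rescaled to the same total, that median moved by more than 0.1, to -0.18, and the calls became 1004 positive and 1629 negative, 38.1% positive against 52.7%. Leaving out 1 library gave 967 to 1662 positive and 820 to 1422 negative calls. Negative calls fell to 845 without Smyd3KO replicate 1 and to 820 without DEN_Smyd3KO replicate 3, both more than 1.5 times below 1289.

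DEN called 2659 genes higher (16.1%) and 2223 lower (13.5%) in wild type livers, 29.6% in all, and 1468 higher (8.91%) and 992 lower (6.02%) in knockout livers, 14.9% in all. These comparisons share no library, and across the 16471 genes their log2 DEN effects had a Pearson r of 0.392 and a Spearman rho of 0.298, given as a description since genes are not independent. The SD of the DEN effects over genes was 1.14 in wild type and 0.775 in the knockout. Untreated, the genotypes differed at 90 genes higher (0.546%) and 101 lower (0.613%) in Smyd3KO, and after DEN at 2708 higher (16.4%) and 2868 lower (17.4%).

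Genes with a negative contrast were mostly genes that stood highest in DEN-treated wild type livers. Of the 1289, 1153 had their highest group mean in DEN_WT, and their median DEN effect was 1.42 in wild type and -0.10 in the knockout. Genes with a positive contrast had another shape. Of the 1438, 1127 had a negative DEN effect in wild type and a positive one in the knockout, with medians of -0.78 and 0.65, and 990 had their highest mean in DEN_Smyd3KO against 394 in WT. All these values come from the libraries that chose the genes, so they describe the calls and add no support to them.

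**Figure D1:**
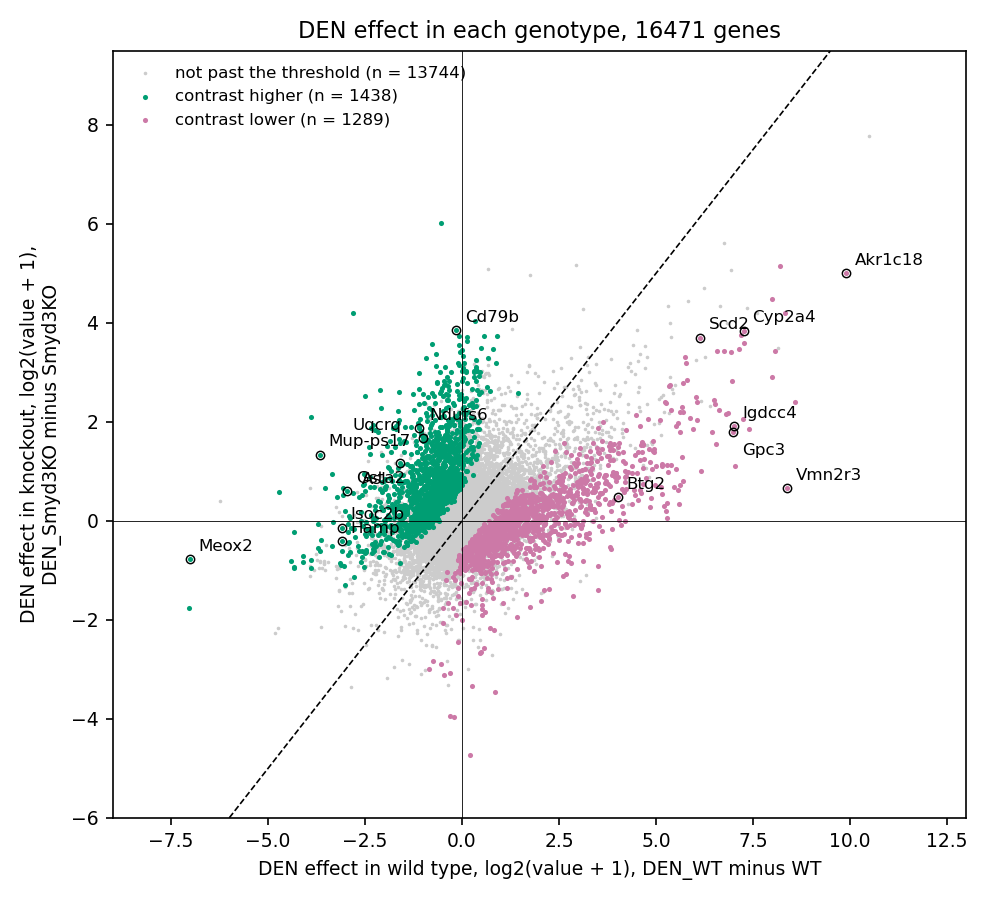
Each point is 1 of 16471 genes, with the log2 DEN effect in wild type livers on the x axis and in knockout livers on the y axis, and colours for the 1438 genes with a positive and the 1289 with a negative contrast past the threshold. Negative contrasts lie mostly to the right, at a median DEN effect in wild type of 1.42, and positive contrasts mostly to the left, at -0.78.

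Gpc3 and Igdcc4 rose steeply with DEN in wild type livers and far less in the knockout, while several genes that are nearly silent outside DEN_WT, described further on, had still more negative contrasts. Gpc3, a cell surface proteoglycan of fetal liver and of hepatocellular carcinoma, was at 18, 26 and 18 in WT, 53, 59 and 18 in Smyd3KO, 2224, 3385 and 2704 in DEN_WT, and 153, 146 and 113 in DEN_Smyd3KO. The lowest DEN_WT library was thus far above every other library, and the DEN_Smyd3KO libraries were still above all untreated ones. The log2 DEN effect was 7.0 in wild type and 1.80 in the knockout (adjusted p = 0.0076), and the contrast was -5.20 ± 0.52 (SE, limma adjusted p = 0.00048). Igdcc4, a cell surface protein of the immunoglobulin superfamily, was at 6 to 14 in the 6 untreated libraries, at 1120, 1255 and 1105 in DEN_WT, and at 39, 92 and 19 in DEN_Smyd3KO. Its groups did not overlap after DEN, and the contrast was -5.10 ± 0.67 (adjusted p = 0.00094).

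Promoter sequences are shown for 4 genes of negative contrast that had a deposited Smyd3 peak within 1 kb of their start, taken in the order of their adjusted p: Gpc3, Btg2, Aldh1b1 and Igdcc4. Each runs 5′ to 3′ on the gene's own strand from 250 bases before to 50 bases after the start, from RefSeq on GRCm38.p6, with CCCTCC or its reverse complement GGAGGG in capitals. The windows are chrX:52613925-52614224 on the minus strand (Gpc3), chr1:134079106-134079405 on the minus strand (Btg2), chr4:45798772-45799071 on the plus strand (Aldh1b1) and chr9:65101236-65101535 on the plus strand (Igdcc4).
Gpc3: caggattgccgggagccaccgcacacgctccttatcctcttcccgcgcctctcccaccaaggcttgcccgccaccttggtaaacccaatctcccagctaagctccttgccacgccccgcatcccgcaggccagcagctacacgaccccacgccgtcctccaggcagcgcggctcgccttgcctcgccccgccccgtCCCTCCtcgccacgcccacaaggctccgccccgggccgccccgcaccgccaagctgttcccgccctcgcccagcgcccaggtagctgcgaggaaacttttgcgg
Btg2: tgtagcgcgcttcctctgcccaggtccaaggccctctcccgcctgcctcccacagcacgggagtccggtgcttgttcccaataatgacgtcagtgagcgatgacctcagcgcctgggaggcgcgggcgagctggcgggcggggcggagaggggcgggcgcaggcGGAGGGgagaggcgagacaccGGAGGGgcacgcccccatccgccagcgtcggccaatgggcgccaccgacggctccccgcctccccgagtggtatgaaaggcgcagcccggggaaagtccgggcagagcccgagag
Aldh1b1: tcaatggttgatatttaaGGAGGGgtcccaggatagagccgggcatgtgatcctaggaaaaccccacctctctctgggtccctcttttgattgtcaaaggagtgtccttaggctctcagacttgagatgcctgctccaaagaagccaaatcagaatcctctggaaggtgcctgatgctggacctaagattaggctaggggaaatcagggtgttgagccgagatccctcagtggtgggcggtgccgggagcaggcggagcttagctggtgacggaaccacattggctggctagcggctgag
Igdcc4: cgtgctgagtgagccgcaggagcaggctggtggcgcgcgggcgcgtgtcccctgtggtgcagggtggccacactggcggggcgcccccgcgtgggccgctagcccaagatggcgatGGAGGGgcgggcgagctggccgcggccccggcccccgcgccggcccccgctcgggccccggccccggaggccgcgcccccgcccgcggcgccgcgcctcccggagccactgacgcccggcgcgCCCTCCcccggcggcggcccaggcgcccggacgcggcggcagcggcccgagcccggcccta
CCCTCC on either strand occurred once in the Gpc3 and Aldh1b1 windows and at 2 places in those of Btg2 and Igdcc4, against 39.4% of 32544 RefSeq promoter windows of the same length that hold it at all. TATAAA, the TATA box motif, occurred in none of the 4 and in 13.6% of all windows. GC content was 70.7% for Gpc3, 72% for Btg2, 54.7% for Aldh1b1 and 84.7% for Igdcc4.

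In the authors' files, which use mm9, the Smyd3 peak at the Gpc3 start covers chrX:49966669-49967511 and the gene lies at chrX:49625603-49967127 on the minus strand. The deposited H3K4me3 regions of DEN-treated livers cover the start of Gpc3 in the wild type list and not in the knockout list. For Igdcc4, Btg2 and Aldh1b1 both lists cover the start. A region missing from a list is below the authors' calling threshold and need not have no signal.

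Other tumour-linked genes kept part of their response to DEN in the knockout. Akr1c18, a steroid reductase, was at 0 to 6 in the untreated libraries, at 1580, 2745 and 2464 in DEN_WT, and at 46, 132 and 111 in DEN_Smyd3KO. Scd2, a fatty acid desaturase of fetal liver, was at 74 to 127 untreated, at 6282, 7666 and 6688 in DEN_WT, and at 1313, 2036 and 921 in DEN_Smyd3KO. For both genes the DEN_Smyd3KO libraries lay above all untreated and below all DEN_WT libraries. The contrasts were -4.90 ± 0.84 for Akr1c18 (limma adjusted p = 0.0031) and -2.44 ± 0.38 for Scd2 (adjusted p = 0.002).

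Spp1, osteopontin, a matrix protein of bile duct cells, macrophages and tumours, was at 557, 878 and 758 in WT, 387, 371 and 561 in Smyd3KO, 9331, 13627 and 16227 in DEN_WT, and 1212, 1470 and 811 in DEN_Smyd3KO. Only DEN_Smyd3KO replicate 3 overlapped an untreated library, and the contrast was -2.76 ± 0.38 (adjusted p = 0.0011). Lcn2, an iron-scavenging acute phase protein, was at 42 to 147 untreated, at 16278, 11421 and 14401 in DEN_WT, and at 319, 4371 and 457 in DEN_Smyd3KO. Replicate 2 thus lay between the other 2 libraries of its group and all of DEN_WT, and the contrast was -5.09 ± 0.96 (adjusted p = 0.0046).

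Of the 30 oncofetal and liver tumour markers, all of them tested, 14 (46.7%, against 7.83% of all genes) had a negative contrast past the threshold. A positive one was called for 0, and the median was -2.44 against -0.03 over all genes. The gene lists were written with earlier results of these data known, so this count is a description. DEN called 23 of the 30 higher in wild type and 15 higher in the knockout, with median DEN effects of 3.80 and 1.81. The count was 17 without DEN_Smyd3KO replicate 2. Golm1, a Golgi protein released into serum in liver cancer, had a contrast of -3.46 (adjusted p = 0.0032), the tetraspanin Tspan8 one of -3.44 (adjusted p = 0.017) and the imprinted gene Peg3 one of -2.44 (adjusted p = 0.0045). The adaptor protein Bex1 followed at -4.63 (adjusted p = 0.01), the stem cell surface marker Prom1 at -2.73 (adjusted p = 0.019), and the annexins Anxa2 and Anxa5 at -1.65 (adjusted p = 0.013) and -1.10 (adjusted p = 0.011). Bex1 was at 0 to 6 in untreated livers, so its size depends on the added 1 (-3.76 with 5 added).

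The best known fetal markers Afp and H19 did not pass, and the treated knockout mice differed widely among themselves. Afp, the fetal serum albumin, was at 2417, 5067 and 2504 in DEN_WT and at 308, 5867 and 208 in DEN_Smyd3KO, against 8 to 45 in untreated livers. DEN_Smyd3KO replicate 2 was the highest of all 12 libraries, and the contrast was -3.40 ± 1.28 (adjusted p = 0.084). H19, an imprinted RNA of fetal tissue, was at 14044, 7549 and 3305 in DEN_WT and at 67, 16737 and 229 in DEN_Smyd3KO, with a contrast of -4.65 ± 2.11 (adjusted p = 0.15). Without DEN_Smyd3KO replicate 2 the contrasts were -4.91 for Afp (adjusted p = 0.00086) and -7.0 for H19 (adjusted p = 0.0042). With the replicate number as a block, Afp passed (-3.40, adjusted p = 0.038). Tff3, a secreted mucosal peptide, overlapped between the treated groups at 3132, 960 and 2941 in DEN_WT and 2242, 7636 and 703 in DEN_Smyd3KO (contrast -2.70 ± 1.23, adjusted p = 0.15).

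Cdcp1, a transmembrane glycoprotein of invasive tumours, was lower in the knockout with and without DEN. It was at 187, 145 and 178 in WT, 10, 24 and 42 in Smyd3KO, 283, 228 and 288 in DEN_WT, and 22, 14 and 12 in DEN_Smyd3KO. The knockout libraries lay below every wild type library under both conditions, by -2.90 (adjusted p = 0.0035) untreated and -4.01 (adjusted p = 4.6e-05) after DEN. Its contrast of -1.11 ± 0.58 was not past the threshold (adjusted p = 0.2), except without Smyd3KO replicate 1, where it was -1.64 (adjusted p = 0.035). Tgfbr2, a receptor of TGF beta, had a contrast of -0.65 ± 0.31 (adjusted p = 0.17), and -0.94 (adjusted p = 0.026) without DEN_Smyd3KO replicate 2.

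**Figure D2:**
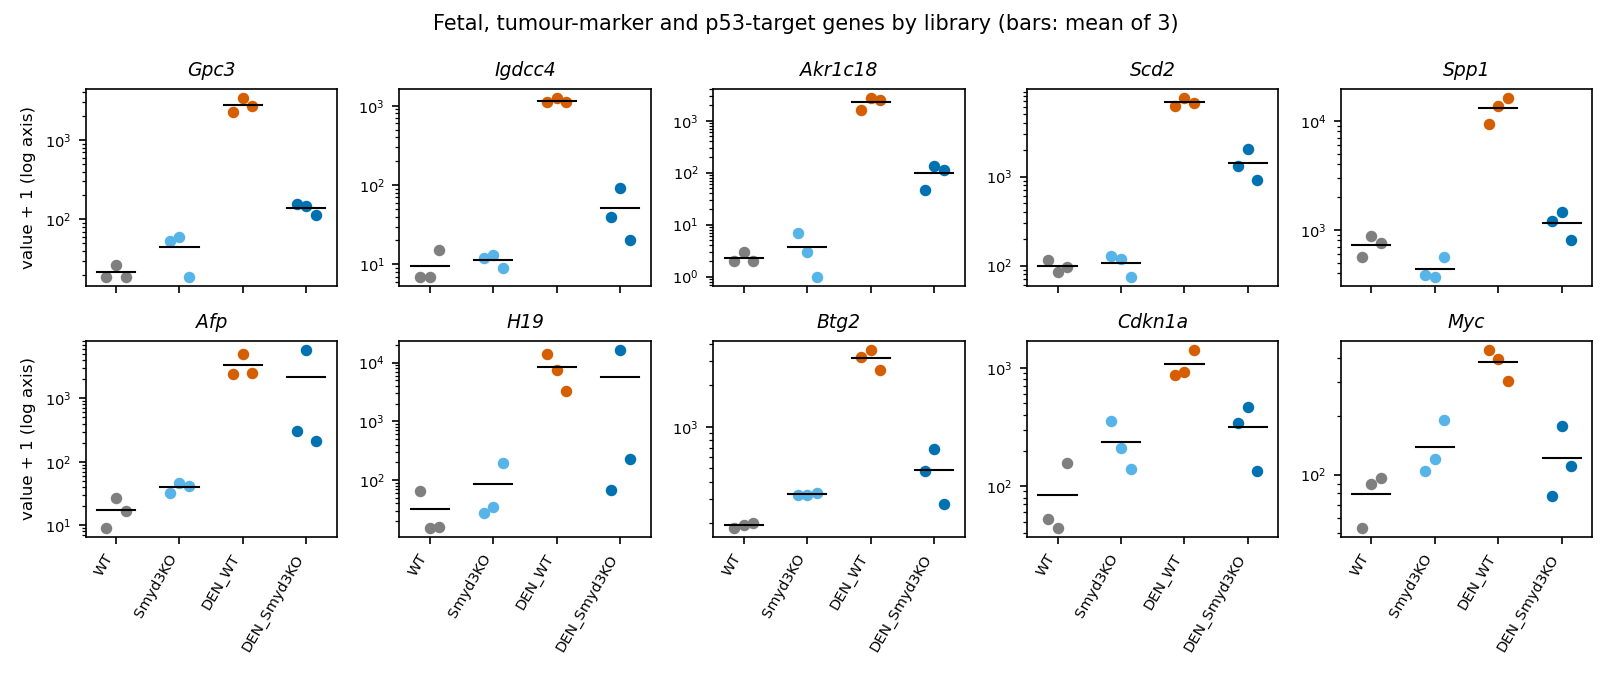
Values plus 1 on a log axis for 10 genes, with 1 point per library, the 4 groups along the x axis and bars at the mean of 3. Gpc3, Igdcc4, Akr1c18, Scd2, Spp1, Btg2 and Cdkn1a are highest in DEN_WT with no overlap with DEN_Smyd3KO, while Afp and H19 overlap through 1 DEN_Smyd3KO library, at 5867 and 16737.

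Target genes of p53, the transcription factor that answers DNA damage, differed in the same direction. Of 27 tested, 7 had a negative contrast (25.9%, against 7.83% of all genes) and 0 a positive one (against 8.73%). The median was -0.63, against -0.03 over all genes. DEN called 14 higher in wild type and 0 lower, and in the knockout 6 higher and 2 lower. Btg2, which restrains cell proliferation, was at 182, 193 and 198 in WT, 317, 320 and 329 in Smyd3KO, 3228, 3652 and 2590 in DEN_WT, and 480, 689 and 275 in DEN_Smyd3KO. No DEN_Smyd3KO library came near DEN_WT, and replicate 3 lay below all of the untreated knockout libraries. Those untreated knockout libraries lay above all WT libraries, so part of the contrast goes with an untreated gap. The contrast was -3.55 ± 0.36 (adjusted p = 0.00051), from a DEN effect of 4.03 in wild type and 0.48 in the knockout (adjusted p = 0.22).

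Cdkn1a, the p21 inhibitor of the cell cycle, was at 52, 43 and 155 in WT, 351, 210 and 138 in Smyd3KO, 867, 928 and 1429 in DEN_WT, and 343, 469 and 133 in DEN_Smyd3KO. The 2 knockout groups overlapped each other, and DEN_WT lay above all other libraries (contrast -3.52 ± 0.73, limma adjusted p = 0.0076). Zmat3, an RNA-binding protein, had a contrast of -1.69 (adjusted p = 0.0033), the receptor Eda2r one of -2.74 (adjusted p = 0.0066) and Psrc1, a spindle protein, one of -3.31 (adjusted p = 0.014). Ccng1, cyclin G1, differed by sign: its DEN effect was 0.38 in wild type (adjusted p = 0.073) and -0.64 in the knockout (adjusted p = 0.015), with a contrast of -1.02 (adjusted p = 0.0078). Mdm2, the p53 ubiquitin ligase, is not among the 7.

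Cell division genes were called higher with DEN more often in wild type, and a minority of their contrasts passed. Of 30 mitosis genes, DEN called 29 higher in wild type and 10 in the knockout. A negative contrast was called for 6 (20%, against 7.83% of all genes) and a positive one for 0 (median -1.77). That count rests on single libraries: it was 3 without WT replicate 1 or 3, Smyd3KO replicate 3 or DEN_Smyd3KO replicate 1, 2 without Smyd3KO replicate 2, 1 without DEN_WT replicate 2 or DEN_Smyd3KO replicate 3, and 10 without DEN_WT replicate 3. Cenpa, the histone of the centromere, was at 73 to 141 untreated, at 348, 733 and 319 in DEN_WT and at 97, 169 and 90 in DEN_Smyd3KO. Only DEN_WT stood wholly apart, and the contrast was -2.02 ± 0.50 (adjusted p = 0.016). Cdk1, the kinase that starts mitosis, had a contrast of -1.59 ± 0.61 (adjusted p = 0.088), and -1.99 (adjusted p = 0.036) without DEN_WT replicate 1.

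Among 32 DNA replication genes, 3 had a negative contrast (9.38%, against 7.83% of all genes) and 2 a positive one (6.25%, against 8.73%), shares near those of all genes. Mcm5, a subunit of the replicative helicase, was at 31, 27 and 36 in WT, 82, 79 and 59 in Smyd3KO, 119, 163 and 89 in DEN_WT, and 78, 62 and 67 in DEN_Smyd3KO. Smyd3KO lay above WT and DEN_WT above all, while DEN left no gap between the knockout groups (contrast -1.99 ± 0.38, adjusted p = 0.0053). Rrm2, a subunit of ribonucleotide reductase, had a contrast of -2.07 (adjusted p = 0.015).

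Myc, a transcription factor of cell growth, was at 52, 88 and 95 in WT, 104, 120 and 191 in Smyd3KO, 439, 394 and 302 in DEN_WT, and 77, 177 and 110 in DEN_Smyd3KO. The DEN_WT libraries lay above all others, the knockout groups overlapped, and the contrast was -2.51 ± 0.47 (limma adjusted p = 0.0047). Smyd3KO lay wholly above WT, so part of the contrast goes with an untreated gap. Klf6, a zinc finger factor of injury, followed at -1.89 ± 0.32 (adjusted p = 0.0031). These were the only 2 of 14 immediate early genes past the threshold, both negative (14.3%, against 7.83% of all genes). Egr1, a factor induced by growth signals, was at 3995, 14311 and 5075 in DEN_WT and 395, 659 and 235 in DEN_Smyd3KO (contrast -3.15 ± 1.04, adjusted p = 0.053), and passed without WT replicate 2 (-3.97, adjusted p = 0.019) or DEN_WT replicate 1 (-3.52, adjusted p = 0.044).

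Some matrix, vessel and bile duct genes also had negative contrasts. Sparc, a secreted matrix protein, was at 910 to 1341 untreated, at 4154, 22871 and 20412 in DEN_WT, and at 1455, 1271 and 939 in DEN_Smyd3KO. The DEN_Smyd3KO libraries lay in or just above the untreated range (contrast -3.15 ± 0.66, limma adjusted p = 0.0081). Col3a1 and Col1a2, fibrillar collagens, had contrasts of -2.13 (adjusted p = 0.012) and -2.20 (adjusted p = 0.019), the latter lost on a square root scale (adjusted p = 0.059). Mmp14, a membrane-bound protease that cleaves collagen, had a contrast of -2.24 ± 0.41 (adjusted p = 0.004), and the epithelial cadherin Cdh1 one of -2.13 ± 0.55 (adjusted p = 0.019). Of 19 EMT and invasion genes, 4 passed, all negative (21.1%, against 7.83% of all genes), with a median of -0.65.

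Of 25 stellate cell and fibrosis markers, 6 had a negative contrast (24%, against 7.83% of all genes) and 0 a positive one (median -0.89). The negative count was 3 without Smyd3KO replicate 1 or without DEN_Smyd3KO replicate 3. The summed value of the 25 markers was 19685 to 32267 in DEN_WT, 6791 to 8152 in DEN_Smyd3KO and 5860 to 8229 in untreated livers. Sparc alone made up 21.1% to 70.9% of it in DEN_WT, and without it the sums were 8535 to 15531, 5763 to 6697 and 4905 to 6888. In bulk tissue, fewer cells of a type and less RNA per cell cannot be told apart, and the part of cell composition in the contrasts was not tested. Of 20 endothelial markers 5 were negative (25%, against 7.83% of all genes). Among them were the vascular cadherin Cdh5 (-1.05, limma adjusted p = 0.01) and Cd34 (-2.14, adjusted p = 0.015). The count was 3 without WT replicate 2, DEN_WT replicate 3 or DEN_Smyd3KO replicate 2. Of 12 cholangiocyte markers tested, 3 were negative (25%, against 7.83% of all genes). Cholangiocyte markers summed to 14902 to 22856 in DEN_WT against 5159 to 5702 in DEN_Smyd3KO and 3723 to 4836 in untreated livers. Spp1 alone made up 62.6% to 71% of that sum in DEN_WT. Without it the sums were 5571 to 6629 in DEN_WT, 4135 to 4490 in DEN_Smyd3KO and 3162 to 4465 untreated.

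Macrophage markers divided. Of 23, 3 had a negative contrast (13%, against 7.83% of all genes) and 0 a positive one, and the median was -0.00. Mpeg1, a pore-forming protein of macrophages, was at 803 to 1776 untreated, at 9714, 7104 and 10223 in DEN_WT and at 1761, 2229 and 2124 in DEN_Smyd3KO (contrast -2.40 ± 0.33, limma adjusted p = 0.0012). Gpnmb, a glycoprotein of lipid-laden macrophages, was at 2 to 11 untreated, at 637, 122 and 220 in DEN_WT and at 8, 38 and 2 in DEN_Smyd3KO (contrast -4.78 ± 1.18, adjusted p = 0.016). Both genes separated DEN_WT from all other groups. The summed markers were at 27318 to 40274 in DEN_WT, 19646 to 23730 in DEN_Smyd3KO and 10519 to 13890 untreated. Spp1, also of this list, made up 24% to 49.9% of the sum in DEN_WT, and without it the treated groups overlapped, at 13691 to 29520 in DEN_WT and 18176 to 22919 in DEN_Smyd3KO, above 9761 to 13329 untreated.

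Several biosynthetic genes rose with DEN in wild type and less or not at all in the knockout. Phgdh and Psat1, which carry out the first steps of serine synthesis, were nearly silent in untreated livers. Phgdh was at 2 to 5 untreated, at 186, 1118 and 847 in DEN_WT and at 9, 33 and 18 in DEN_Smyd3KO, so that the 3 sets did not overlap (contrast -4.65 ± 0.87, limma adjusted p = 0.0045). The contrast of Psat1 was -3.81 (adjusted p = 0.0094), and that of Trib3, a pseudokinase induced by amino acid stress, was -2.98 (adjusted p = 0.0027). In the list of 25 ATF4 and ER stress genes 5 were negative (20%, against 7.83% of all genes) and 3 positive (12%, against 8.73%). The positive count was 1 without WT replicate 2 or 3, Smyd3KO replicate 1, DEN_WT replicate 2, or DEN_Smyd3KO replicate 1 or 3.

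Sqle, squalene epoxidase of cholesterol synthesis, was at 825, 735 and 1303 in WT, 1383, 1133 and 1443 in Smyd3KO, 3588, 4521 and 4256 in DEN_WT, and 1263, 1486 and 1114 in DEN_Smyd3KO. Treated and untreated knockout libraries overlapped, and DEN_WT lay well above (contrast -2.19 ± 0.29, adjusted p = 0.001). Dhcr7, the last enzyme of the pathway, had a contrast of -1.40 ± 0.26 (adjusted p = 0.0046). Of 23 cholesterol synthesis genes 6 were negative (26.1%, against 7.83% of all genes) and 0 positive (median -0.71). DEN called 11 of them higher in wild type and 0 in the knockout. The count of 6 was 3 without Smyd3KO replicate 1 or DEN_WT replicate 2, 2 without DEN_Smyd3KO replicate 3, and 12 after quantile normalization.

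Cyp2a4, a steroid hydroxylase that is near-identical to Cyp2a5 and so uncertain in its counting, was at 220 to 1009 untreated, at 90792, 37393 and 45636 in DEN_WT and at 8458, 24311 and 6845 in DEN_Smyd3KO. The 3 sets did not overlap (contrast -3.42 ± 0.68, adjusted p = 0.0062). Aldh1b1, a mitochondrial aldehyde dehydrogenase, was at 1705 to 3225 untreated, at 10538, 9327 and 9203 in DEN_WT and at 4193, 3650 and 4302 in DEN_Smyd3KO, again without overlap (contrast -1.81 ± 0.22, adjusted p = 0.00088). Sae1, a subunit of the enzyme that activates SUMO, was at 417 to 651 untreated, at 2052, 1921 and 1799 in DEN_WT and at 563, 648 and 562 in DEN_Smyd3KO, where the knockout did not leave the untreated range (contrast -1.96 ± 0.22, adjusted p = 0.00055). The leptin receptor Lepr and the interleukin 1 antagonist Il1rn had contrasts of -2.82 (adjusted p = 0.0035) and -2.91 (adjusted p = 0.014). They were 2 of 3 negative members (13.6%, against 7.83% of all genes) among 22 JAK-STAT3 and IL6 signalling genes. In that list 1 gene was positive (4.55%, against 8.73%). Stat3 itself had a contrast of -0.30 ± 0.30 (adjusted p = 0.53).

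Genes that were silent or nearly so outside DEN_WT had the most negative contrasts. Vmn2r3, annotated as a vomeronasal receptor, was at 968, 1271 and 90 in DEN_WT and at 0 to 3 in the other 9 libraries (contrast -7.72 ± 1.32, limma adjusted p = 0.0031). Cxcl17, a chemokine of mucosal tissue, was listed at 0 in all 6 untreated libraries, at 75, 147 and 203 in DEN_WT and at 0, 4 and 1 in DEN_Smyd3KO (contrast -5.94 ± 0.91, adjusted p = 0.0019). Because these genes sit at the floor, the size depends on the added 1: with 5 added, the contrast was -6.23 for Vmn2r3 and -4.40 for Cxcl17. Gldn, which encodes gliomedin, followed at -6.18 (adjusted p = 0.0031), the leukotriene enzyme Alox5 at -5.53 (adjusted p = 0.005), the collagen Col6a6 at -5.24 (adjusted p = 0.0016) and the protease-activated receptor F2rl1 at -5.04 (adjusted p = 0.0031). Prnd, a prion-like protein, and Wfdc15b, a small secreted protein with a whey acidic domain, both had a contrast of -4.91 (adjusted p = 0.0046 and 0.00089). Wfdc15b was at 11 to 18 untreated, at 701, 874 and 809 in DEN_WT and at 39, 37 and 9 in DEN_Smyd3KO, whose replicate 3 was the lowest of all 12 libraries.

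On the positive side, the most uniform group was the oxidative phosphorylation machinery of mitochondria. Uqcrq, a subunit of complex III, was at 3255, 2219 and 2412 in WT, 1785, 2884 and 2618 in Smyd3KO, 1311, 1302 and 1253 in DEN_WT, and 7197, 7706 and 7914 in DEN_Smyd3KO. The treated groups lay on opposite sides of the untreated range with no overlap, and the contrast was 2.68 ± 0.27 (limma adjusted p = 0.00048). Ndufs6, of complex I, was at 510, 626 and 454 in WT, 270, 459 and 443 in Smyd3KO, 200, 262 and 273 in DEN_WT, and 1443, 1362 and 1401 in DEN_Smyd3KO. It rose in knockout livers by 1.88 (adjusted p = 0.00066) and fell by 1.11 on the log2 scale in wild type (adjusted p = 0.0017; contrast 2.99 ± 0.30, adjusted p = 0.00048). Ndufa6 and Ndufb9, also of complex I, had contrasts of 1.91 (adjusted p = 0.00088) and 1.78 (adjusted p = 0.00094).

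The symbols of 83 nuclear genes name complex I, III, IV or ATP synthase (Nduf, Uqcr, Cox4 to Cox8 and Atp5). A few of these genes are assembly factors. Of the 83, 60 had a positive contrast (72.3%, against 8.73% of all genes) and 0 a negative one, with a median of 1.29. DEN called 59 of them lower and 0 higher in wild type, and 31 higher and 3 lower in the knockout. The count was 54 to 64 when single libraries were left out, 57 after correction of each library for genomic span and GC content, and 53 after rescaling to the same total. Genomic span includes introns, and no correction for transcript length was made. This family and the other gene families defined by symbol in this and the next paragraph were chosen after their values were seen, so their counts are descriptions.

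Other families of short housekeeping genes held positive contrasts too, although most members did not pass. Positive contrasts numbered 36 of 79 for mitochondrial ribosomal proteins, 26 of 78 for cytosolic ribosomal proteins, 10 of 40 for proteasome subunits and 10 of 32 for histone cluster genes, with 0 negative in each. Their DEN effects differed in shape. The median in wild type was -0.47 for mitochondrial ribosomal proteins, -0.30 for proteasome subunits, -0.07 for cytosolic ribosomal proteins and 0.18 for histone cluster genes, against 0.31, 0.19, 0.67 and 1.70 in the knockout. For cytosolic ribosomal proteins the count was 13 without Smyd3KO replicate 1, 17 without DEN_WT replicate 3, 14 without DEN_Smyd3KO replicate 3 and 12 after the span and GC correction. For mitochondrial ribosomal proteins it was 21 without Smyd3KO replicate 1. For histone cluster genes it was 10 to 12 without 1 library. The median log2 deviation of these genes was 0.601, 1.616 and 1.509 in DEN_Smyd3KO replicates 1, 2 and 3, and at most 0.018 elsewhere. Pomp, which assembles the proteasome, had a contrast of 2.18 ± 0.24 (adjusted p = 0.00055), Polr2i, a subunit of RNA polymerase II, one of 2.97 ± 0.33 (adjusted p = 0.00055), and Eif3i, a translation initiation subunit, one of 1.70 ± 0.19 (adjusted p = 0.00055). Ribosomal protein and respiratory chain genes have many processed pseudogenes whose reads cannot be assigned with certainty.

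The gene with the lowest adjusted p of all those named here was Isoc2b, an isochorismatase domain protein that is near-identical to Isoc2a. It was at 585, 511 and 603 in WT, 449, 620 and 439 in Smyd3KO, 66, 67 and 64 in DEN_WT, and 410, 474 and 476 in DEN_Smyd3KO. Only wild type livers lost it with DEN, to about the same level in all 3 mice, and the contrast was 2.95 ± 0.24 (adjusted p = 0.00022).

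**Figure D3:**
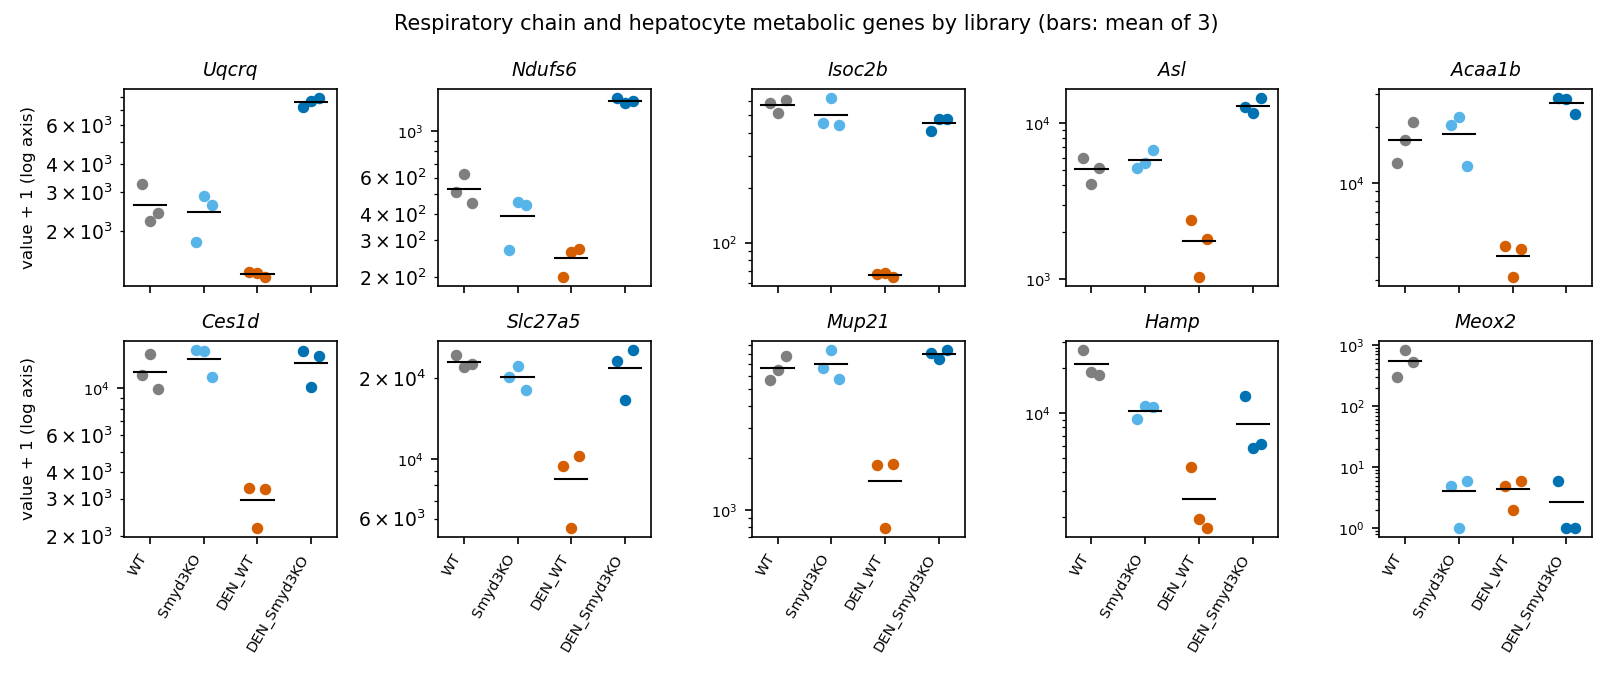
Values plus 1 on a log axis for 10 genes with a positive contrast, with 1 point per library, the 4 groups along the x axis and bars at the mean of 3. DEN_WT is the lowest group for Uqcrq, Ndufs6, Isoc2b, Asl, Acaa1b, Ces1d, Slc27a5, Mup21 and Hamp, while Meox2 is high in WT only, at 296, 843 and 524.

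Many genes of adult hepatocyte metabolism fell with DEN in wild type and had a positive contrast. Acaa1b, a thiolase of peroxisomal fatty acid oxidation, was at 12743, 17005 and 21130 in WT, 20336, 22432 and 12374 in Smyd3KO, 4599, 3133 and 4436 in DEN_WT, and 28556, 28206 and 23274 in DEN_Smyd3KO. DEN_WT lay below all other libraries and DEN_Smyd3KO above all (contrast 2.63 ± 0.37, limma adjusted p = 0.0013). Of 34 targets of PPARA, the nuclear receptor of fatty acid oxidation, 14 were positive (41.2%, against 8.73% of all genes) and 0 negative (median 1.15). After quantile normalization 9 were positive. DEN called 21 of the 34 lower and 3 higher in wild type, against 0 lower and 1 higher in the knockout.

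Cpt2, which passes fatty acids into mitochondria, had a contrast of 1.75 (adjusted p = 0.0025), and the fatty acid hydroxylase Cyp4a32 one of 2.97 (adjusted p = 0.00094). For the thioesterase Acot1 the contrast was 3.12 (adjusted p = 0.007), with both Cyp4a32 and Acot1 belonging to near-identical families. Fabp1, the fatty acid carrier of the hepatocyte, was at 40127 to 68376 untreated, at 26257, 24390 and 25350 in DEN_WT and at 66171, 70722 and 66451 in DEN_Smyd3KO (contrast 1.61 ± 0.34, adjusted p = 0.0087).

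Of 39 cytochrome P450 and drug metabolism genes, 16 were positive (41%, against 8.73% of all genes) and 1, Cyp2a4, negative (median 1.17). DEN called 24 lower in wild type and 2 lower in the knockout. The count of 16 was 10 without WT replicate 2, DEN_Smyd3KO replicate 1 or DEN_Smyd3KO replicate 3, and 10 after quantile normalization. Ces1d, a carboxylesterase, was at 9899 to 15223 untreated, at 3382, 2175 and 3326 in DEN_WT and at 15003, 10150 and 14190 in DEN_Smyd3KO, so that the treated knockout stayed in the untreated range (contrast 1.94 ± 0.33, adjusted p = 0.003). Its relative Ces2a had the same contrast of 1.94 (adjusted p = 0.007), and the monooxygenases Cyp2d9 and Cyp2f2 had contrasts of 2.23 (adjusted p = 0.0065) and 2.62 (adjusted p = 0.0075). Cyp2b10, the classic target of the drug receptor CAR, was at 1848 to 3035 untreated, at 297, 27 and 60 in DEN_WT and at 757, 463 and 413 in DEN_Smyd3KO. It was lower with DEN in both genotypes, and its contrast of 2.57 ± 0.84 missed the threshold (adjusted p = 0.053) but passed without DEN_WT replicate 1 (3.52, adjusted p = 0.00095).

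Bile acid genes followed the same course, with 7 of 25 positive (28%, against 8.73% of all genes), 0 negative and a median of 0.79. DEN called 19 of them lower in wild type and 3 in the knockout. Slc27a5, which joins bile acids to coenzyme A, was at 18056 to 24355 untreated, at 9451, 5528 and 10287 in DEN_WT and at 23061, 16594 and 25546 in DEN_Smyd3KO. The bile acid receptor Nr1h4 differed before treatment as well, at 2690, 4280 and 3649 in WT against 1609, 1317 and 1833 in Smyd3KO, 1783, 876 and 1415 in DEN_WT and 1704, 1766 and 1905 in DEN_Smyd3KO. WT was above the other 3 groups, so the positive contrast (1.60 ± 0.34, adjusted p = 0.0088) goes with a lower untreated knockout level (adjusted p = 0.039). Contrasts were 1.59 for Slc27a5 (adjusted p = 0.0099), 2.05 for the transporter Slco1b2 (adjusted p = 0.014) and 1.16 for the racemase Amacr (adjusted p = 0.014).

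In nitrogen metabolism, Asl, the argininosuccinate lyase of the urea cycle, was at 5931, 4078 and 5173 in WT, 5155, 5556 and 6664 in Smyd3KO, 2388, 1036 and 1798 in DEN_WT, and 12687, 11621 and 14451 in DEN_Smyd3KO. It rose in the knockout by 1.16 (adjusted p = 0.011) and fell by 1.60 on the log2 scale in wild type (adjusted p = 0.00052), with no overlap between the treated groups (contrast 2.76 ± 0.36, adjusted p = 0.00094). Hpd, of tyrosine breakdown, had a contrast of 2.84 ± 0.50 (adjusted p = 0.0035). Lect2, a secreted hepatocyte protein and Wnt target, had one of 2.58 ± 0.41 (adjusted p = 0.0023). Of 22 periportal genes 3 were positive (13.6%, against 8.73% of all genes) and 2 negative (9.09%, against 7.83%). Without DEN_WT replicate 1, 5 were positive. Of 20 pericentral and Wnt target genes 3 were positive (15%, against 8.73% of all genes) and 1 negative (5%, against 7.83%). Positive ones numbered 6 without DEN_WT replicate 1, and 1 without WT replicate 2, Smyd3KO replicate 1 or 2, or DEN_Smyd3KO replicate 1 or 3.

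Male-biased liver genes, which depend on pulses of growth hormone, were called lower with DEN mostly in wild type livers. Of 30, DEN called 27 lower in wild type and 4 in the knockout. A positive contrast was called for 14 (46.7%, against 8.73% of all genes) and a negative one for 0 (median 1.84). That count ranged widely: 7 without WT replicate 2, Smyd3KO replicate 1 or DEN_Smyd3KO replicate 2, 6 without Smyd3KO replicate 2, 5 without DEN_Smyd3KO replicate 3, 25 without DEN_WT replicate 1, and 8 after quantile normalization. Ugt2b38, a glucuronosyltransferase, was at 3831 to 5923 untreated, at 1685, 1568 and 1516 in DEN_WT and at 3520, 3334 and 2930 in DEN_Smyd3KO, below the untreated range in both genotypes but further below it in wild type (contrast 1.39 ± 0.20, adjusted p = 0.0015). Mup21, a major urinary protein, was at 5658 to 8484 untreated, at 1817, 783 and 1837 in DEN_WT and at 8111, 7499 and 8471 in DEN_Smyd3KO (contrast 2.48 ± 0.40, adjusted p = 0.0024). Hsd3b5, a steroid dehydrogenase, was at 8391 to 18461 untreated and overlapped between the treated groups at 2682, 919 and 3050 and at 2351, 2970 and 6216 (contrast 1.74 ± 0.57, adjusted p = 0.053). It passed without DEN_WT replicate 1 (1.97, adjusted p = 0.041), DEN_WT replicate 3 (2.06, adjusted p = 0.035) or DEN_Smyd3KO replicate 1 (2.03, adjusted p = 0.04).

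Keg1, an N-acyltransferase of this list, was at 19457, 21157 and 22873 in WT, 7438, 9401 and 10973 in Smyd3KO, 3290, 2339 and 3719 in DEN_WT, and 2973, 4496 and 5398 in DEN_Smyd3KO. The treated groups overlapped and the untreated knockout was already lower than WT, so here the contrast (1.65 ± 0.34, adjusted p = 0.0075) goes with an untreated gap of -1.21 (adjusted p = 0.031). The Mup genes are near-identical copies, and reads may have been shared among them. Of 41 Mup genes and pseudogenes tested, 14 had a positive contrast and 0 a negative one, with Mup-ps17 at 5.01 (adjusted p = 0.0029) and Mup-ps18 at 3.70 (adjusted p = 0.0062). In the similarly repeated Serpina3 family 5 of 14 were positive, among them Serpina3c at 5.99 (adjusted p = 0.019) and Serpina3l-ps at 3.74 (adjusted p = 0.002). Both families were also grouped by symbol after their values were seen.

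Hamp, which encodes the iron hormone hepcidin, was at 26605, 18823 and 18040 in WT, 9107, 11057 and 10970 in Smyd3KO, 4311, 1949 and 1686 in DEN_WT, and 13072, 5857 and 6170 in DEN_Smyd3KO. DEN_WT was the lowest group, and DEN_Smyd3KO straddled Smyd3KO (contrast 2.70 ± 0.50, limma adjusted p = 0.0043). All Smyd3KO libraries lay below all WT libraries, so part of the contrast goes with an untreated gap. Signs were mixed among acute phase genes. Cp, ceruloplasmin, had a contrast of -1.39 (adjusted p = 0.0077) and Apcs, serum amyloid P, one of -2.41 (adjusted p = 0.016). Of 27 acute phase genes 2 were positive (7.41%, against 8.73% of all genes) and 3 negative (11.1%, against 7.83%), with a median of -0.11. These shares were near those of all genes. The positive count was 4 without DEN_WT replicate 1, and 1 without WT replicate 2 or 3, Smyd3KO replicate 1 or 2, DEN_WT replicate 2 or 3, or DEN_Smyd3KO replicate 1 or 3.

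Among 23 NRF2 targets 9 were positive (39.1%, against 8.73% of all genes) and 1 negative (4.35%, against 7.83%), with a median of 0.46. Gsta2, a glutathione transferase with close paralogs, was at 598 to 1261 untreated, at 141, 89 and 230 in DEN_WT and at 1930, 894 and 1157 in DEN_Smyd3KO (contrast 3.56 ± 0.48, adjusted p = 0.001). The pentose phosphate pathway divided: Taldo1, transaldolase, had a contrast of 1.34 (adjusted p = 0.0025), whereas G6pdx, its first enzyme, was at 526, 664 and 677 in DEN_WT and 177, 193 and 182 in DEN_Smyd3KO with a contrast of -2.40 (adjusted p = 0.0056). Aldehyde oxidase Aox1 had a contrast of 1.51 (adjusted p = 0.0076). Of 13 heat shock genes 4 were positive (30.8%, against 8.73% of all genes) and 0 negative (median 1.07). The positive count was 2 without Smyd3KO replicate 1, DEN_WT replicate 3 or DEN_Smyd3KO replicate 2 or 3, and 7 without DEN_Smyd3KO replicate 1. Hspa1b, whose copy Hspa1a is near-identical, was at 1207, 1345 and 577 in WT, 240, 514 and 376 in Smyd3KO, 172, 391 and 392 in DEN_WT, and 381, 1942 and 3385 in DEN_Smyd3KO. The DEN_Smyd3KO libraries spread from the Smyd3KO range to above every other library (contrast 3.63 ± 0.90, limma adjusted p = 0.017). Here too Smyd3KO lay wholly below WT, so part of the contrast goes with an untreated gap.

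Immune lists gave few calls. Of 26 interferon response genes DEN called 12 higher in wild type and 13 higher in the knockout, and 0 had a positive and 1 a negative contrast, with a median of 0.05. None of 17 T and NK cell markers and none of 10 neutrophil markers passed. Of 9 B and plasma cell markers 1 passed: Cd79b, a subunit of the B cell receptor, at 11, 5 and 5 in WT, 2, 0 and 3 in Smyd3KO, 9, 3 and 7 in DEN_WT, and 36, 54 and 17 in DEN_Smyd3KO (contrast 4.0 ± 0.90, adjusted p = 0.011, and 2.61 with 5 added). Cfd, complement factor D of adipocytes, was at 0 to 18 except for 181, 62 and 21 in DEN_Smyd3KO (contrast 4.75 ± 1.11, adjusted p = 0.013, and 3.17 with 5 added), as 1 of 7 adipocyte markers past the threshold.

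The remaining lists were mixed or small, and counts this low are to be read against the 7.83% and 8.73% of all genes with a negative and a positive contrast. Negative and positive contrasts numbered 2 and 0 of 13 antigen presentation genes, 4 and 2 of 20 lipogenesis genes, 4 and 2 of 29 female-biased genes, 2 and 1 of 20 growth hormone and IGF genes, 1 and 0 of 18 clock genes, and 2 and 0 of 27 SMYD family and H3K4 methylation genes. These counts moved with single libraries. Without 1 library, negative calls were 1 to 4 for antigen presentation (4 without DEN_WT replicate 2), 1 to 4 for clock genes (4 without DEN_WT replicate 1), 1 to 4 for the SMYD and H3K4 list (4 without Smyd3KO replicate 3) and 1 to 3 for growth hormone and IGF genes. Positive calls were 0 to 4 for clock genes and 0 to 6 for female-biased genes, in both cases highest without DEN_WT replicate 1, and 0 to 2 for growth hormone and IGF genes. Among hepatocyte transcription factors 1 of 21 was negative and 4 were positive, or 2 without WT replicate 2 or 3, DEN_WT replicate 2 or DEN_Smyd3KO replicate 3. Lipid droplet genes had 1 negative and 4 positive of 18. The positive count was 1 without WT replicate 3 or DEN_WT replicate 2 or 3, and 2 without any 1 of the Smyd3KO or DEN_Smyd3KO libraries. The 4 negative lipogenesis genes were 2 without DEN_WT replicate 3 or DEN_Smyd3KO replicate 3. Hepatocyte markers had 1 negative and 3 positive of 10 (1 positive without Smyd3KO replicate 1), erythroid markers 0 and 2 of 8 (1 to 3 positive without 1 library), and exocrine pancreas markers 0 and 0 of 3.

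Genes were described at length above mostly where their call held without any 1 library, so the others picked by the naming rule are given here, those with unstable calls included. Of the 131 rule genes past the threshold that are given here, 96 kept their call in every setting and 35 lost it in at least 1. Among the largest contrasts, Ly6k was at 0 or 1 untreated, at 351, 794 and 24 in DEN_WT and at 3, 2 and 11 in DEN_Smyd3KO (contrast -5.19 ± 1.43, adjusted p = 0.026). Its call was lost without any 1 of 7 libraries. Stra8, a meiosis gene, had a contrast of -4.94 (adjusted p = 0.011), and its treated groups did not overlap, at 72, 15 and 54 in DEN_WT and 2, 9 and 8 in DEN_Smyd3KO. No treated library reached 100, the mean that the naming rule asks of some group, so an untreated group stood highest. The treated gap on the log2 scale was smaller than the contrast, and the rest is a higher level in the untreated knockout. Its call was lost on the square root scale (adjusted p = 0.065). Fitm1 (4.31, adjusted p = 0.029), Mfsd2a (4.22, adjusted p = 0.022), Mup-ps6 (4.11, adjusted p = 0.024), Myom2 (4.05, adjusted p = 0.048), Hspa1a (3.62, adjusted p = 0.026) and Mup11 (3.60, adjusted p = 0.026) were positive. Each of these 6 lost its call without at least 4 of the 12 libraries, and Myom2 without 11.

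The 2 DNA replication genes with a positive contrast were Mcm10 and Gins4. Mcm10, a replication initiation factor, was at 4850, 3318 and 3312 in WT, 1223, 460 and 651 in DEN_WT, and 2789, 2490 and 3012 in DEN_Smyd3KO (contrast 2.72 ± 0.44, adjusted p = 0.0025). Its DEN effect was -2.39 in wild type and 0.33 in the knockout. Part of the contrast is a lower level in untreated knockout than in untreated wild type livers. Gins4, of the replicative helicase, had a contrast of 1.48 (adjusted p = 0.0032). The other mitosis genes past the threshold that the rule picked were less stable. Ttk (-3.01, adjusted p = 0.027), Bub1 (-2.89, adjusted p = 0.028) and Top2a (-2.44, adjusted p = 0.039) lost their calls without 5, 6 and 8 of the libraries taken singly. DEN_WT replicate 2 was the highest library for all 3, at 88 for Ttk, 96 for Bub1 and 542 for Top2a.

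Of the rule genes with negative contrasts that kept their call in every setting, Igfbp3, a carrier of insulin-like growth factors, was at -2.42 (adjusted p = 0.0093), the flavin monooxygenase Fmo4 at -2.16 (adjusted p = 0.0072) and Gata6, a transcription factor, at -1.86 (adjusted p = 0.0028). The lysine methyltransferase Setd7 was at -1.69 (adjusted p = 0.007), the class I gene H2-Q7, one of a family of close copies, at -1.68 (adjusted p = 0.0025) and Sesn2 at -1.40 (adjusted p = 0.011). Tcf7 (-1.39, adjusted p = 0.015), the nuclear receptor Rora (-1.38, adjusted p = 0.0029), the endothelial Emcn (-1.36, adjusted p = 0.02) and the desaturase Fads2 (-1.05, adjusted p = 0.019) completed this group. Negative calls lost in some setting were those of Igfbp1 (-4.12), Pnpla3 (-2.96), Col1a1 (-2.64), H2-Aa (-1.70), Oas1a (-1.64), Osmr (-1.36), Lss (-1.32), Pkhd1 (-1.32, adjusted p = 0.0495), Itgav (-1.16), Trf (-1.04), Flt1 (-1.02) and Kdm2a (-0.80).

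Positive rule genes that kept their call throughout were Me1, the malic enzyme, at 2.27 (adjusted p = 0.0092), the erythroid Alas2 at 2.13 (adjusted p = 0.0027), the transcription factor Onecut2 at 2.05 (adjusted p = 0.0032), the pyruvate kinase Pklr at 1.91 (adjusted p = 0.015), the chaperonin Hspe1 at 1.06 (adjusted p = 0.0077) and Fitm2 at 1.00 (adjusted p = 0.014). Positive calls lost in some setting were those of G0s2 (3.13), Hspb1 (2.27), Cyp2e1 (2.24), Cyp1a2 (1.96), Ass1 (1.93), Car1 (1.85), Apoc3 (1.84), Ttr (1.75), Cebpb (1.64), Cyp3a44 (1.63) and Ghr (1.15). Cyp2e1 and Cyp1a2, pericentral P450 enzymes, and Ass1 and Ghr, of the urea cycle and of growth hormone signalling, lost theirs without 5 to 8 of the libraries taken singly.

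**Figure D4:**
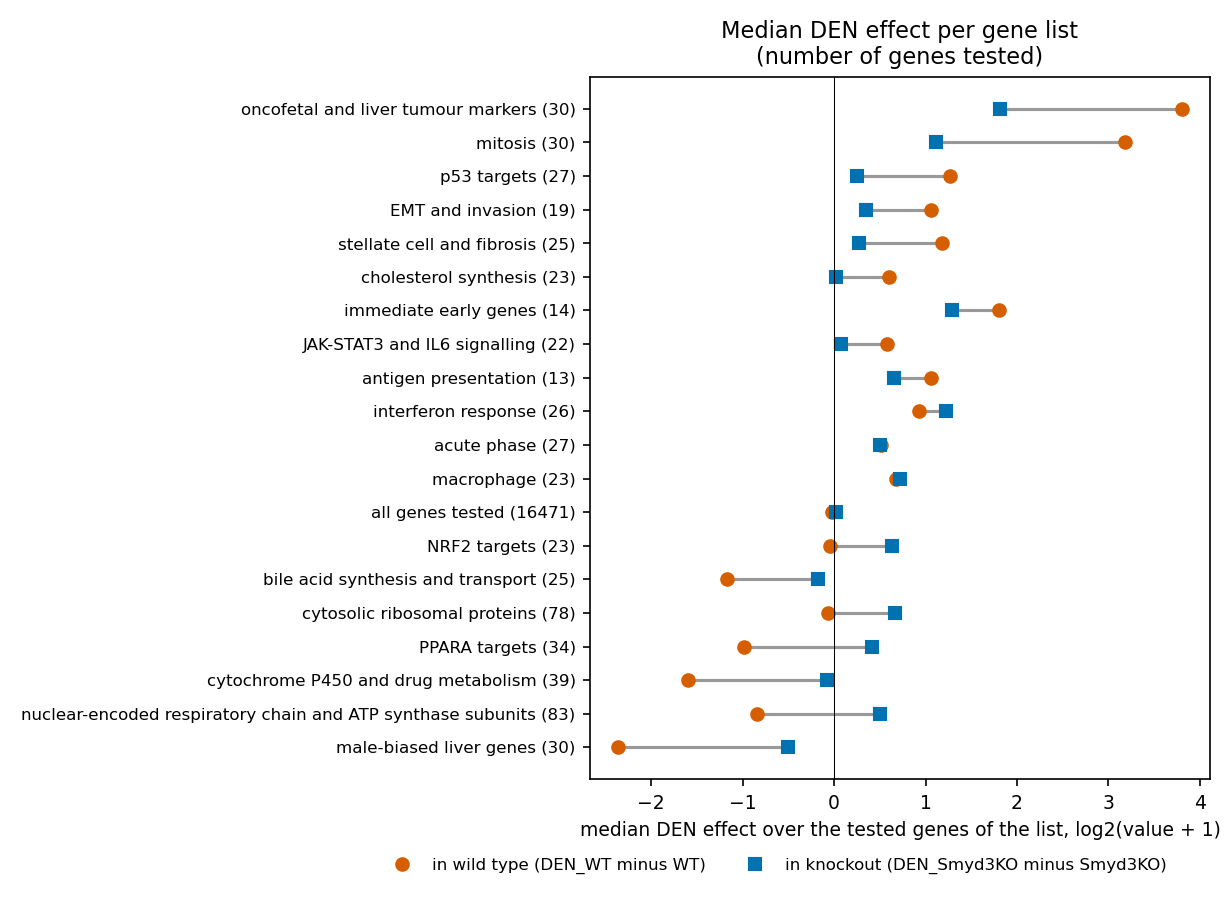
For each of 19 gene lists and for all genes tested, the circle is the median log2 DEN effect in wild type livers and the square the median in knockout livers, with the number of genes tested beside each name. The pair lies furthest apart for oncofetal and liver tumour markers, at 3.80 and 1.81, mitosis, at 3.18 and 1.11, and male-biased genes, at -2.36 and -0.50. It nearly coincides for acute phase genes, at 0.51 and 0.50, and for macrophage markers, at 0.68 and 0.72.

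Some contrasts went with a genotype gap in untreated livers. Meox2, a homeobox factor, was at 296, 843 and 524 in WT, 4, 0 and 5 in Smyd3KO, 4, 1 and 5 in DEN_WT, and 5, 0 and 0 in DEN_Smyd3KO. It was present in untreated wild type livers alone, and its contrast of 6.25 ± 1.16 (limma adjusted p = 0.0045) was the largest positive one under the rule for named genes (5.69 with 5 added). Ankrd55, an ankyrin repeat protein, was at 385, 218 and 355 in WT, 4, 5 and 6 in Smyd3KO, 49, 25 and 39 in DEN_WT, and 4, 10 and 14 in DEN_Smyd3KO, so that the genotype gap remained but narrowed with DEN (contrast 3.72 ± 0.61, adjusted p = 0.0026). Eci3, an isomerase of fatty acid oxidation, had an untreated gap of -2.87 (adjusted p = 0.015) and a contrast of 4.10 (adjusted p = 0.0032).

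Scn8a, a voltage-gated sodium channel, crossed over. It was at 17, 13 and 10 in WT, 78, 115 and 64 in Smyd3KO, 679, 1219 and 1231 in DEN_WT, and 175, 236 and 117 in DEN_Smyd3KO. The knockout was above wild type untreated, by 2.58 (adjusted p = 0.0023), and below it after DEN, by -2.57 (adjusted p = 0.00017), with no overlap in either condition and a contrast of -5.15 ± 0.47 (adjusted p = 0.00036). Nipal1, a magnesium transporter, crossed over likewise at 5, 2 and 9 in WT, 14, 50 and 82 in Smyd3KO, 536, 423 and 662 in DEN_WT, and 100, 141 and 112 in DEN_Smyd3KO (contrast -5.0 ± 0.77, adjusted p = 0.0019). Cspg5, a neural proteoglycan, was at 8, 1 and 10 in WT, 220, 232 and 88 in Smyd3KO, 44, 69 and 40 in DEN_WT, and 78, 106 and 209 in DEN_Smyd3KO (contrast -3.57 ± 0.85, adjusted p = 0.014, lost on a square root scale at an adjusted p of 0.061). The exchange factor Tiam2 was also higher in the untreated knockout, by 3.64 (adjusted p = 0.011), and the treated groups overlapped at 132, 287 and 242 in DEN_WT and 267, 64 and 418 in DEN_Smyd3KO (contrast -3.76 ± 0.84, adjusted p = 0.011).

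Genomic span moved with the sign of the contrast. The median genomic span was 5.67 kb for genes with a positive contrast, 28.7 kb for those with a negative one and 17.3 kb for all genes tested. Protein-coding genes were split by span into 5 classes of equal size. The shortest class (up to 7.138 kb) had 15.1% positive and 5.58% negative calls, with a median contrast of 0.27, and the longest class 3.82% and 11.3%, with a median of -0.28. Within single libraries, the median deviation of the shortest class from each gene's mean was 0.133 to 0.193 in the 3 DEN_Smyd3KO libraries and -0.112 to 0.020 in the other 9. Pseudogenes, which are short and repeated, had 335 positive and 15 negative contrasts out of 1692 (median 0.73). Genes annotated as miRNA held 0.352% and 0.350% of the values in DEN_Smyd3KO replicates 2 and 3, against at most 0.0696% in the other 10 libraries. The part of RNA quality or fragment selection in this was not tested. With each library corrected for span and GC content, 1157 contrasts were positive and 1186 negative, and 2009 of the 2727 calls remained.

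**Figure D5:**
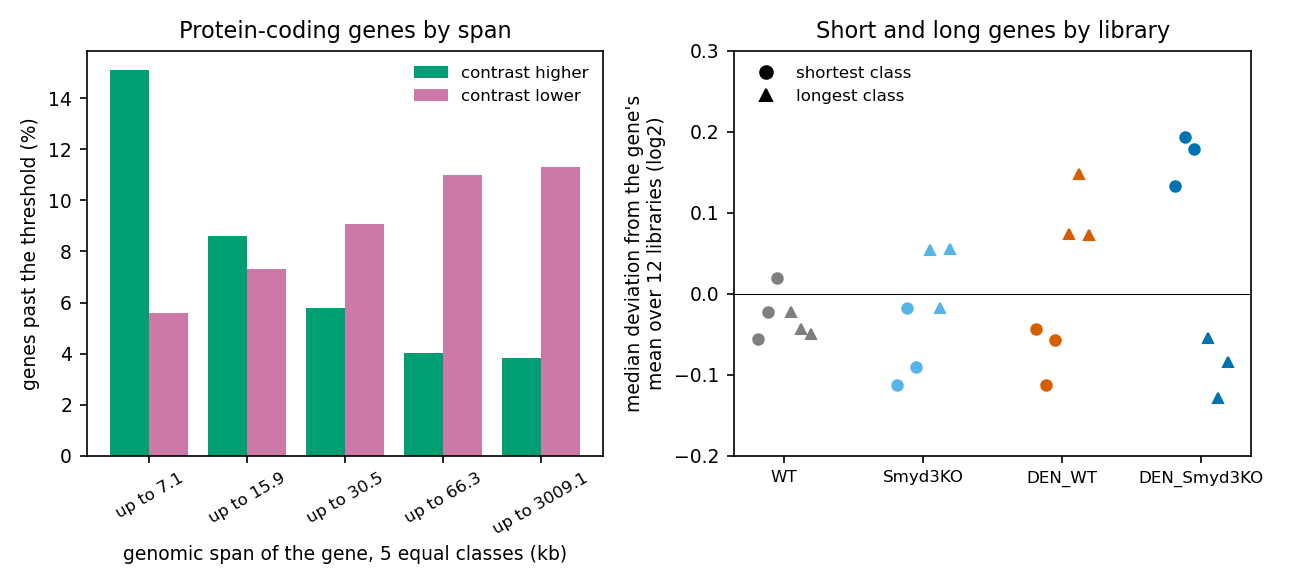
On the left, the percent of protein-coding genes with a positive or a negative contrast past the threshold, by 5 equal classes of genomic span in kb. On the right, the median log2 deviation of the shortest class (circles) and the longest class (triangles) of genes from their mean over 12 libraries, with 1 point per library, where the shortest class lies at 0.133 to 0.193 in DEN_Smyd3KO and at or below 0.020 elsewhere.

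Chromatin of DEN-treated livers was compared with the contrasts at gene starts, within 1 kb and in mm9 coordinates, as a description. The deposited lists, each made from 2 replicates, hold 27324 Smyd3 peaks from wild type and 15579 (wild type) and 17491 (knockout) H3K4me3 regions. A Smyd3 peak lay at 72.1% of genes with a negative contrast, 52.3% of those with a positive one and 64.2% of all tested, and among protein-coding genes at 73.9%, 65.5% and 71.2%. An H3K4me3 region listed in wild type but not in the knockout was found at 4.89% of negative genes, 0.626% of positive ones and 1.72% of all. In the third of genes with the lowest mean values, that share was 10.7% of negative genes against 3.53% of all. Regions listed in the knockout alone lay at 1.94% of negative genes, 3.96% of positive ones and 3.6% of all. Among the genes picked by the naming rule, Gpc3, Gldn, Alox5, Akr1c18, Wfdc15b, Phgdh and Il1rn had their start in the wild type H3K4me3 list alone, and 9 had theirs in the knockout list alone. Of these 9, Keg1, Mup-ps17, Mup11, Acot1, Fitm1, Cyp1a2 and Alas2 had a positive contrast, and Igfbp3 and H2-Aa a negative one.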

How the data were processed

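RNA was measured in 12 livers, per the labels' protocols from bead-isolated mRNA that was digested with RNase III and sequenced on an Ion Proton. The build is mm9 and the tools are DESeq, Bowtie2, Cufflinks, TopHat2 2.0.9 and cutadapt per the submitters' processing notes, which give them no role or order. Not stated there or in the labels are the peak caller, the read counter, its annotation release and whether strand was used. Each value of the deposited table is a score, that is, a read count per gene and library that the authors normalized and rounded to whole numbers, as read from the values themselves. Recomputed median-ratio factors were 0.999 to 1.00. The GC content of each gene is a fraction deposited in the same table, per the file headers. The deposited region lists give starts and ends and a score of 0 in each line.

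Values were analysed as log2(value + 1) with limma 3.58.1 (R 4.3.3), 1 fit of 4 groups of 3 libraries with 8 residual degrees of freedom, a trend in the prior variance and Benjamini-Hochberg adjustment over all 16471 genes tested, with a threshold of 0.05. Another 21112 genes were below the filter, 7930 of them at 0 in every library. Adding 1 understates the change of low genes. For a pair of groups, 3 mice against 3 leave no exact test that could pass 0.05. No exact test was run for the contrast, which takes all 4 groups, so only model-based p-values are given. Libraries of a group correlated with r of 0.956 to 0.978 and differed by more than sampling noise. That cannot tell separate mice from separate preparations of 1 liver, so each counts as 1 mouse by its label alone. Columns of samples outside the series numbered 0. The fit was run on simulated data to check the code, with 1 spread setting for all genes and changes in DEN_Smyd3KO only. That setting differs from these data, so it does not show how the fit performs on them.

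The members, gene lists and tests were chosen with earlier results of these data known. Named genes are the 15 largest positive and 15 largest negative contrasts past the threshold with a usual gene symbol, a mean of at least 100 in some group and the same sign without any 1 library, up to 4 members of each list by adjusted p, and Smyd3. Which of the rule's genes are described at length was decided after seeing how their calls held under the alternatives. All but 1, which is not reported here, are given with their contrasts. Genes named beside these (Isoc2b, Uqcrq and the other Nduf genes, Polr2i, Pomp, Eif3i, Sae1, Golm1, Tspan8, Bex1, Peg3, Anxa2, Anxa5, Psrc1, Ccng1, Fabp1, Tiam2, Cspg5, Afp, H19, Tff3, Cdcp1, Tgfbr2, Cdk1, Egr1, Stat3, Cyp2b10 and Hsd3b5) were chosen after their values were seen. Alternatives covered the added constant, filter, scaling, variance trend, library weights, scale, replicate block, single libraries and, chosen after seeing the data, a loess correction for span and GC content and protein-coding genes alone. Promoters were matched to RefSeq by symbol, and all 4 matched.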

Additional observations from a re-analysis of the deposited data

Results flagged for a closer look

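Every result here was picked out because the DEN effect differed between the genotypes, and the contrast itself, in limma with Benjamini-Hochberg adjustment, is the test of that difference. It was positive past the threshold at 1438 genes and negative at 1289, and the 151 genes past it that the text names, 66 positive and 85 negative, are given here by their contrast on the log2(value + 1) scale. No explanation of them was tested.

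Fetal liver and tumour genes with negative contrasts were Gpc3 (-5.20), Igdcc4 (-5.10), Akr1c18 (-4.90), Scd2 (-2.44), Spp1 (-2.76), Lcn2 (-5.09), Golm1 (-3.46), Tspan8 (-3.44), Bex1 (-4.63), Peg3 (-2.44), Prom1 (-2.73), Anxa2 (-1.65) and Anxa5 (-1.10). Genes with few reads outside DEN_WT, and Stra8, were Vmn2r3 (-7.72), Gldn (-6.18), Cxcl17 (-5.94), Alox5 (-5.53), Wfdc15b (-4.91), Ly6k (-5.19), F2rl1 (-5.04), Prnd (-4.91), Col6a6 (-5.24) and Stra8 (-4.94). In cell division, growth control and the p53 response these were Cenpa (-2.02), Ttk (-3.01), Bub1 (-2.89), Top2a (-2.44), Btg2 (-3.55), Cdkn1a (-3.52), Zmat3 (-1.69), Eda2r (-2.74), Ccng1 (-1.02), Psrc1 (-3.31), Myc (-2.51), Klf6 (-1.89), Mcm5 (-1.99) and Rrm2 (-2.07). Matrix, invasion, bile duct, macrophage, vessel and antigen genes were Sparc (-3.15), Col1a1 (-2.64), Col1a2 (-2.20), Col3a1 (-2.13), Mmp14 (-2.24), Itgav (-1.16), Cdh1 (-2.13), Pkhd1 (-1.32), Mpeg1 (-2.40), Gpnmb (-4.78), Cdh5 (-1.05), Cd34 (-2.14), Emcn (-1.36), Flt1 (-1.02), H2-Aa (-1.70), H2-Q7 (-1.68) and Oas1a (-1.64). Biosynthetic and stress genes were Sqle (-2.19), Dhcr7 (-1.40), Lss (-1.32), Fads2 (-1.05), Pnpla3 (-2.96), Phgdh (-4.65), Psat1 (-3.81), Trib3 (-2.98), Sesn2 (-1.40), G6pdx (-2.40), Cyp2a4 (-3.42), Aldh1b1 (-1.81), Fmo4 (-2.16) and Sae1 (-1.96). Signalling, plasma protein and regulatory genes were Lepr (-2.82), Il1rn (-2.91), Osmr (-1.36), Igfbp1 (-4.12), Igfbp3 (-2.42), Cp (-1.39), Apcs (-2.41), Trf (-1.04), Gata6 (-1.86), Rora (-1.38), Tcf7 (-1.39), Setd7 (-1.69) and Kdm2a (-0.80). Genes with a genotype gap before DEN were Scn8a (-5.15), Nipal1 (-5.0), Tiam2 (-3.76) and Cspg5 (-3.57).

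Positive contrasts of respiratory chain and housekeeping genes were Uqcrq (2.68), Ndufs6 (2.99), Ndufa6 (1.91), Ndufb9 (1.78), Isoc2b (2.95), Polr2i (2.97), Pomp (2.18) and Eif3i (1.70). In lipid metabolism they were Acaa1b (2.63), Cyp4a32 (2.97), Cpt2 (1.75), Acot1 (3.12), Fabp1 (1.61), Eci3 (4.10), Me1 (2.27), Pklr (1.91), Fitm1 (4.31), Fitm2 (1.0), G0s2 (3.13) and Mfsd2a (4.22). In drug, bile acid and nitrogen metabolism they were Ces1d (1.94), Ces2a (1.94), Cyp2d9 (2.23), Cyp2f2 (2.62), Cyp2e1 (2.24), Cyp1a2 (1.96), Cyp3a44 (1.63), Slc27a5 (1.59), Nr1h4 (1.60), Slco1b2 (2.05), Amacr (1.16), Asl (2.76), Ass1 (1.93), Hpd (2.84), Ugt2b38 (1.39), Gsta2 (3.56), Taldo1 (1.34) and Aox1 (1.51). Male-biased, secreted and hormone response genes were Mup21 (2.48), Mup11 (3.60), Mup-ps6 (4.11), Mup-ps17 (5.01), Mup-ps18 (3.70), Keg1 (1.65), Serpina3c (5.99), Serpina3l-ps (3.74), Hamp (2.70), Lect2 (2.58), Apoc3 (1.84), Ttr (1.75) and Ghr (1.15). The other positive ones were Mcm10 (2.72), Gins4 (1.48), Hspa1a (3.62), Hspa1b (3.63), Hspb1 (2.27), Hspe1 (1.06), Alas2 (2.13), Car1 (1.85), Cd79b (4.0), Cfd (4.75), Cebpb (1.64), Onecut2 (2.05), Meox2 (6.25), Ankrd55 (3.72) and Myom2 (4.05).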

How the results depend on the processing

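Counts of positive and negative contrasts were 1438 and 1289, and 2374 and 2247 with library weights, the cause of which was not tested. Without 1 library they were 967 to 1662 and 820 to 1422, with negative calls at 845 without Smyd3KO replicate 1 and 820 without DEN_Smyd3KO replicate 3, and 1750 to 2409 of the 2727 calls remained. Rescaling to the same total gave 1004 and 1629 and moved the median of all genes from -0.03 to -0.18, so 38.1% of calls were positive against 52.7%. The contrast of Smyd3 was -1.42 (adjusted p = 0.11), -1.79 to -0.94 without 1 library, and passed with library weights (-1.70, adjusted p = 0.03). Replicate numbers are shared between groups. Deviations from the group means correlated at -0.0996 to 0.120 between same-numbered libraries of different groups, with 1 of 18 pairs over 0.1. Pairs of different numbers ran from -0.152 to 0.132, with 2 of 36 over 0.1. These values show no pairing by number, but with 3 libraries a group they cannot settle it. With the replicate block there were 1317 and 1146 calls, and Smyd3 was at -1.42. The block brought Afp, Egr1 (-3.15, adjusted p = 0.039), Cyp2b10 (2.57, 0.042) and Hsd3b5 (1.74, 0.048) past the threshold and took Hspb1, Kdm2a and Pkhd1 from it. Of the 152 genes past the threshold that were tracked under every setting, 119 kept their call without any 1 library, 119 under all other settings and 115 under both, and 0 reversed. Most were picked as the strongest in their list or direction, and 20 after their values were seen, so these shares do not describe other genes. Tff3, not past the threshold, turned to 3.81 on the square root scale (adjusted p = 0.89). With 3 mice a group, low genes such as Bub1, at 2 to 5 untreated, are least precise.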
